A study of Mus musculus with 2 samples.

Results

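The NRF2 antioxidant genes are a group of 10 genes made up of the transcription factor NRF2 (gene name Nfe2l2), its inhibitor Keap1 and 8 target genes that act on glutathione, thioredoxin, heme and quinones (Hmox1, Nqo1, Gclm, Gclc, Txnrd1, Srxn1, Gsr and Gsta4). They were taken by gene name, from a list drawn up with earlier results of these data known, and all 10 were found among the 26082 genes of the data. RNA-seq was performed on primary mouse fibro-adipogenic progenitors (FAPs), the mesenchymal cells of skeletal muscle that can become adipocytes or fibroblasts, which the study sorted from hind-limb muscle of C57BL/6 mice. The cells were labelled wild type, and a single library was made per condition, one from cells transfected with a plasmid overexpressing TGFBR3, the type III receptor of TGFβ, and one from cells given the vector as control. The labels put both cultures under adipogenic differentiation, in a medium with 20% FBS and the inducers insulin (10 μg/ml), dexamethasone (0.25 μM) and IBMX (0.5 mM). The time under induction, the number of mice and the promoter of the plasmid are not given in the labels. With 1 library per condition no spread between cultures could be measured, so no p-value is given, and the intervals below cover counting error only.

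The level of the overexpressed gene did not separate the libraries clearly. In FPKM, a fragment count divided by exon length and by the library's total, Tgfbr3 had 36.87 where the label says TGFBR3 overexpression and 35.13 where it says vector control (16372 and 21245 counts). Its log2 ratio of (FPKM + 1) was 0.07 (95% interval 0.04 to 0.10), and −0.08 when the libraries were centred on the median gene. The species and the coding part of the plasmid are not given in the sources used here, so these values do not tell whether the transfection raised TGFBR3, and the study's own RT–PCR of TGFBR3 after transfection was not analysed here. The libraries are therefore called by their labels throughout, as the TGFBR3-labelled and the vector-labelled library, and paired values are given in this order. Total counts were 62321027 and 83779203. Of the FAP markers, Pdgfra (30.48 and 32.60 FPKM) and Pdgfrb (88.88 and 94.32 FPKM) stood at close levels. Ly6a (1012.73 and 706.37 FPKM) and Osr1 (24.83 and 16.23 FPKM) were higher in the TGFBR3-labelled library. Cd34 (20.62 and 25.68 FPKM) and the collagens Col1a1 (467.46 and 869.95 FPKM) and Col3a1 (95.76 and 199.49 FPKM) were lower in it. Dcn stood at 18.16 and 16.40 FPKM, Tcf7l2 at 2.24 and 1.86 FPKM, and Lum at 0.27 and 0.03 FPKM. The 10 FAP markers summed to 1761 and 1963 FPKM, mostly from Ly6a and Col1a1, which went opposite ways.

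NRF2 is a basic leucine zipper transcription factor that is made continuously and destroyed continuously. KEAP1 holds it in the cytoplasm and presents it to a CUL3 ubiquitin ligase, and when oxidants or electrophiles modify cysteines of KEAP1, newly made NRF2 escapes, enters the nucleus and binds antioxidant response elements together with a small MAF protein. The target genes make and recycle glutathione, keep thioredoxin and peroxiredoxins reduced, break down heme and detoxify quinones and aldehydes. Because NRF2 is controlled largely at the level of protein, its activity cannot be read from its mRNA alone. In muscle and in fat precursors the pathway is known for limiting oxidative damage, and NRF2 has been linked to adipogenesis.

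The core of the antioxidant response element, TGACNNNGC, was searched on both strands in the promoter windows of RefSeq (GRCm38.p6), each running from 250 bases before to 50 bases after a gene's start. Windows were held for 6 of the 10 genes, and 4 of these genes had a match, while Keap1 and Nqo1 had none in their windows. An element outside a window would not be seen. Hmox1, Gclc, Gsr and Gsta4 have no entry in the table. Counted by window, 4 of the 8 windows of these genes held a match, and of all 32851 windows 12.4% held the same letters. The matches are shown because they place the letters of the element next to the start of the regulator itself and of 3 targets, and the element is in capitals. In Gclm, Srxn1 and Txnrd1 the element reads on the opposite strand, so its reverse complement is seen, and in Nfe2l2 it reads on the strand of the gene.
Nfe2l2: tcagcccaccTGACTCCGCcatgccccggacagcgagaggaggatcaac
Gclm: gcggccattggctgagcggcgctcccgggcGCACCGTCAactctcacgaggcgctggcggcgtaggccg
Txnrd1: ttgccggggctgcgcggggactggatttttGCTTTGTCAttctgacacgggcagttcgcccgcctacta
Srxn1: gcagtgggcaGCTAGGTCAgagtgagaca
The stretch of Nfe2l2 is chr2:75704865-75704913 on the minus strand, with the element 240 to 232 bases before the start. It overlaps an exon of E030042O20Rik, a gene on the opposite strand with 0.23 and 0.33 FPKM, from 23 counts in the TGFBR3-labelled library and 43 in the vector-labelled library. The stretch of Gclm is chr3:122245393-122245461 on the plus strand, with the element 134 to 126 bases before the start. Txnrd1 has 3 windows, and the stretch, chr10:82859084-82859152 on the plus strand, comes from the middle one, with the element 92 to 84 bases before that start. In Srxn1 (chr2:152105542-152105570, plus strand) the element lies 28 to 36 bases after the start, within the transcribed part. A match of these letters is a description of the window, and binding of NRF2 was not measured.

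All 10 genes were well expressed, from 14.42 to 1650.11 FPKM in the TGFBR3-labelled library and from 13.57 to 1914.04 FPKM in the vector-labelled library. Gclc was the only one of the 10 at least 2-fold higher in the TGFBR3-labelled library, and Gclc, Nfe2l2 and Srxn1 were the 3 at least 1.5-fold higher. None of the 10 was 1.5-fold lower. Of all 26082 genes, 1.41% were at least 2-fold higher and 0.475% at least 2-fold lower, and 6.46% and 2.33% were at least 1.5-fold higher and lower. Of the 11213 genes whose mean FPKM was at least 1 (expressed genes), which include all 10, 3.14% and 1.03% were 2-fold higher and lower, and 13.3% and 4.91% were 1.5-fold higher and lower. The median log2 ratio of the 10 genes was 0.28, compared with 0.14 for the 11213 expressed genes. After centring on the median gene these medians were 0.13 and 0.01, and 6 of the 10 genes lay above 0 and 4 below, compared with 51.4% of the expressed genes above 0.

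**Figure D1:**
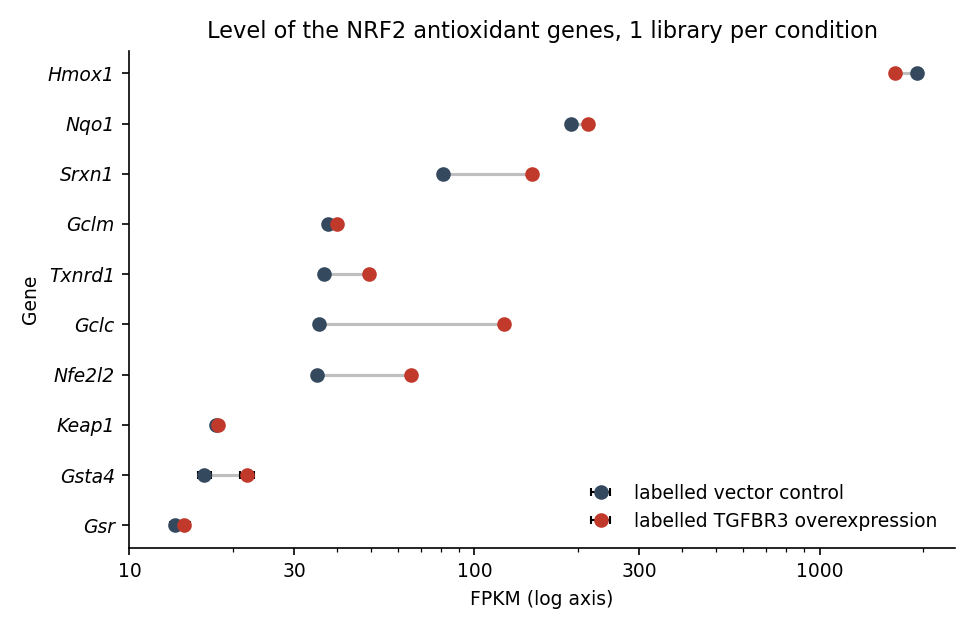
FPKM of the 10 NRF2 antioxidant genes (log axis) in the vector-labelled library (dark points) and the TGFBR3-labelled library (red points), with 95% counting intervals, mostly narrower than the points. A grey line joins the values of each gene. The longest line is that of Gclc, from 35.47 to 121.73 FPKM, and Hmox1 is the highest gene in both libraries.

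Among the regulators, the factor and its inhibitor differed. Nfe2l2 (ENSMUSG00000015839, chr2:75675513-75704641, minus strand) had 65.41 FPKM in the TGFBR3-labelled library and 34.95 FPKM in the vector-labelled library, from 16845 and 12261 counts. It was 1.87-fold higher, with a log2 ratio of (FPKM + 1) of 0.89 (95% interval 0.85 to 0.92). Of the 11213 expressed genes, 484 had a higher ratio. Centred on the median gene the log2 ratio was 0.73, and without the GC trend it was 0.61, which is still above the 1.5-fold line.

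Keap1 (ENSMUSG00000003308, chr9:21229730-21239361, minus strand), the cysteine-bearing sensor that keeps NRF2 low, had 18 and 17.80 FPKM, from 5734 and 7723 counts. Its log2 ratio was 0.02 and the interval, −0.03 to 0.06, held 0. The value was −0.13 after centring and 0.10 after removal of the GC trend, so Keap1 has no direction that holds under these settings. Of its exon length, 10.9% overlaps exons on the opposite strand, and reads there could be told apart only if the counting used strand, which is not stated in the sources used here. The ratio of Nfe2l2 to Keap1 in FPKM was 3.63 in the TGFBR3-labelled library and 1.96 in the vector-labelled library. On the log2 scale this ratio moved by 0.89 (95% interval 0.83 to 0.95), and a ratio within a library is not touched by the total used to scale it. It is touched by the GC trend. With that trend removed Nfe2l2 stood at 0.61 and Keap1 at 0.10, so the 2 genes lay closer together.

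The subunits of glutamate-cysteine ligase, which carries out the first and rate-limiting step of glutathione synthesis, parted from each other. Gclc (ENSMUSG00000032350, chr9:77754535-77794485, plus strand) encodes the catalytic subunit and had 121.73 and 35.47 FPKM in the TGFBR3-labelled and vector-labelled libraries, from 31101 and 12342 counts. The count itself was larger in the TGFBR3-labelled library, although that library held fewer counts in all. Gclc was 3.43-fold higher, with a log2 ratio of 1.75 (95% interval 1.72 to 1.78), and 100 of the 11213 expressed genes had a higher ratio. The ratio was 1.60 after centring, 1.55 after removal of the GC trend and 1.65 after removal of the trend over exon length.

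Gclm (ENSMUSG00000028124, chr3:122245557-122270732, plus strand), the modifier subunit that raises the affinity of the enzyme for glutamate, had 39.91 and 37.59 FPKM, from 17036 and 21853 counts. Its log2 ratio was 0.08 (95% interval 0.06 to 0.11), but −0.07 after centring and −0.30 after removal of the GC trend, so its direction depends on the scaling. For Gclm 5.61% of its 31-base words occur in transcripts of other genes, which is the largest share among the 10. Gclc stood at 3.05 times the FPKM of Gclm in the TGFBR3-labelled library and at 0.944 times in the vector-labelled library. This ratio of subunits differed by 1.69 on the log2 scale (95% interval 1.65 to 1.73).

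Gclc and Gsta4 lie near each other on chromosome 9, and the expressed genes within 500 kb of Gclc were looked at after its value was seen. Besides Gsta4, Elovl5 (log2 ratio 0.07), Cilk1 (0.11) and Fbxo9 (−0.22) stayed between the 1.5-fold lines. Rn7sk, a small noncoding RNA gene, had a log2 ratio of −0.81 from 52 counts in the TGFBR3-labelled library and 146 in the vector-labelled library. Gm3776 had a ratio of 1.01 from 100 and 27 counts. The ratio of Gclc was the largest of these expressed genes on the scale of FPKM + 1. Gm3776 stood at 1.67 and 0.33 FPKM, so its plain ratio of FPKM exceeded that of Gclc.

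Gsr and Gsta4 act downstream of glutathione synthesis. Gsr (ENSMUSG00000031584, chr8:33652523-33698163, plus strand), the reductase that recycles oxidised glutathione with NADPH, had the lowest FPKM of the 10 genes, 14.42 and 13.57, from 2695 and 3454 counts. Its log2 ratio was 0.08 (95% interval 0.01 to 0.15). After centring it was −0.06 (95% interval −0.13 to 0.01), and no difference was detectable for Gsr beyond the scaling.

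Gsta4 (ENSMUSG00000032348, chr9:78182774-78209349, plus strand), a transferase that joins glutathione to 4-hydroxynonenal and other products of lipid peroxidation, had 21.95 and 16.50 FPKM, from 1887 and 1930 counts. The log2 ratio was 0.39 (95% interval 0.30 to 0.48), or 1.33-fold, and 0.24 after centring. Gsta4 had the fewest counts and the widest interval among the 10 genes. It lay above 0 and below the 1.5-fold line under each setting used.

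Srxn1 and Txnrd1 belong to the thioredoxin and peroxiredoxin branch. Srxn1 (ENSMUSG00000032802, chr2:152105516-152111376, plus strand) encodes sulfiredoxin, which repairs overoxidised peroxiredoxins, and had 146.69 and 81.27 FPKM in the TGFBR3-labelled and vector-labelled libraries, from 28063 and 21175 counts. It was 1.80-fold higher, with a log2 ratio of 0.84 (95% interval 0.82 to 0.87), and 542 expressed genes had a higher ratio. The ratio was 0.69 after centring and 0.84 after removal of the GC trend or of the exon length trend.

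Txnrd1 (ENSMUSG00000020250, chr10:82833951-82897712, plus strand), the cytosolic selenoenzyme that reduces thioredoxin, had 49.59 and 36.54 FPKM, from 23842 and 23924 counts. Its log2 ratio was 0.43 (95% interval 0.41 to 0.46), or 1.36-fold, with 0.28 after centring and 0.21 after removal of the exon length trend. Txnrd1 was thus above 0 in each setting, and below Srxn1. In FPKM, Srxn1 stood at 2.96 times Txnrd1 in the TGFBR3-labelled library and at 2.22 times in the vector-labelled library, a difference of 0.41 on the log2 scale (95% interval 0.37 to 0.45).

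**Figure D2:**
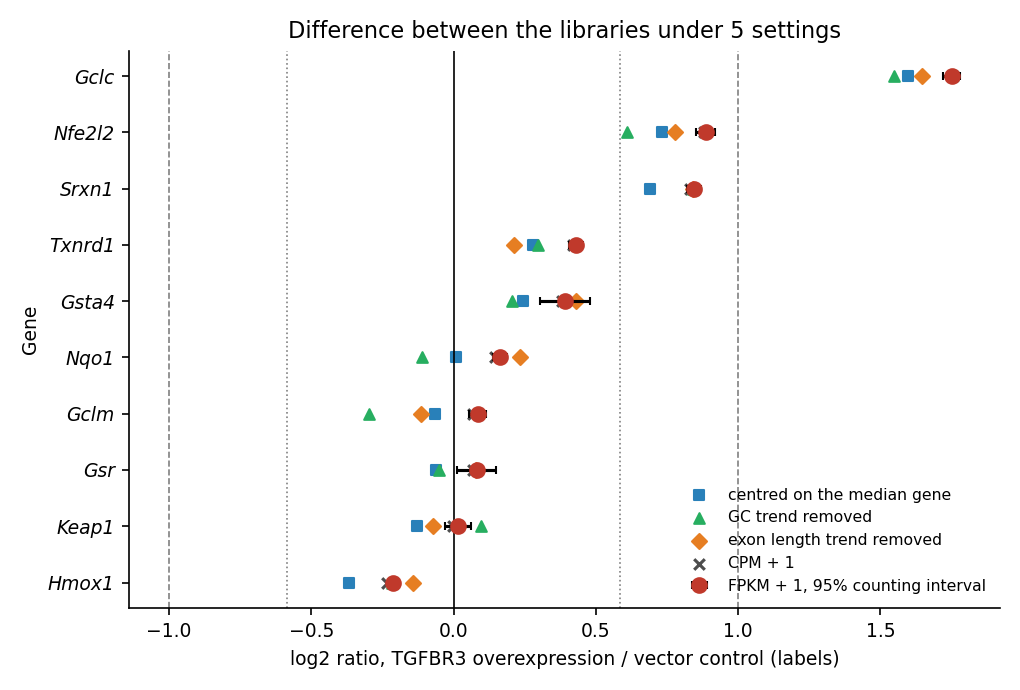
Log2 ratio, TGFBR3-labelled over vector-labelled library, of each gene as FPKM + 1 with its 95% counting interval (red), after centring (blue squares), after removal of the GC trend (green triangles) or of the exon length trend (orange diamonds), and as CPM + 1 (crosses). Dotted and dashed lines mark 1.5-fold and 2-fold. Gclc, Nfe2l2 and Srxn1 lie to the right of the 1.5-fold line under all 5 settings, whereas Nqo1, Gclm, Gsr and Keap1 fall on either side of 0.

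Hmox1 and Nqo1 were the highest of the 10 genes, and neither reached 1.5-fold under any setting used. Hmox1 (ENSMUSG00000005413, chr8:75093621-75100589, plus strand), the inducible oxygenase that opens the heme ring to biliverdin, iron and carbon monoxide, had 1650.11 FPKM in the TGFBR3-labelled library and 1914.04 FPKM in the vector-labelled library, from 196010 and 309653 counts. In order of FPKM it was number 7 and number 9 of all genes in these libraries. It was the only one of the 10 genes with a ratio below 0 before centring, at −0.21 (95% interval −0.22 to −0.21), which is 1.16-fold lower. The value was −0.37 after centring and −0.14 after removal of the exon length trend. Among the expressed genes 2211 had a lower ratio than Hmox1.

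Nqo1 (ENSMUSG00000003849, chr8:107388225-107403206, minus strand), which reduces quinones to hydroquinones and is widely used to read NRF2 activity, had 213.26 and 190.42 FPKM, from 22468 and 27323 counts. Its log2 ratio was 0.16 (95% interval 0.14 to 0.19), and 0.01 (95% interval −0.02 to 0.04) after centring, so it differed from the median gene by less than the counting error. With the GC trend removed it was −0.11. The ratio of Hmox1 to Nqo1 was 7.74 in the TGFBR3-labelled library and 10.1 in the vector-labelled library, a difference of −0.38 on the log2 scale (95% interval −0.40 to −0.35). With the GC trend removed Hmox1 was at −0.22 and Nqo1 at −0.11, so the genes lay closer together.

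The FPKM of the 10 genes summed to 2341.07 in the TGFBR3-labelled library and 2378.15 in the vector-labelled library. Hmox1 alone made up 70.5% and 80.5% of these sums, so a summed level of the group is mainly a level of Hmox1. The order of levels began with Hmox1, Nqo1 and Srxn1 in both libraries. In the TGFBR3-labelled library Gclc came next, followed by Nfe2l2, Txnrd1, Gclm, Gsta4, Keap1 and Gsr, and no neighbours in that order had overlapping counting intervals. In the vector-labelled library the order went on with Gclm, Txnrd1, Gclc, Nfe2l2, Keap1, Gsta4 and Gsr. There the intervals of Txnrd1 and Gclc overlapped, as did those of Gclc and Nfe2l2.

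**Figure D3:**
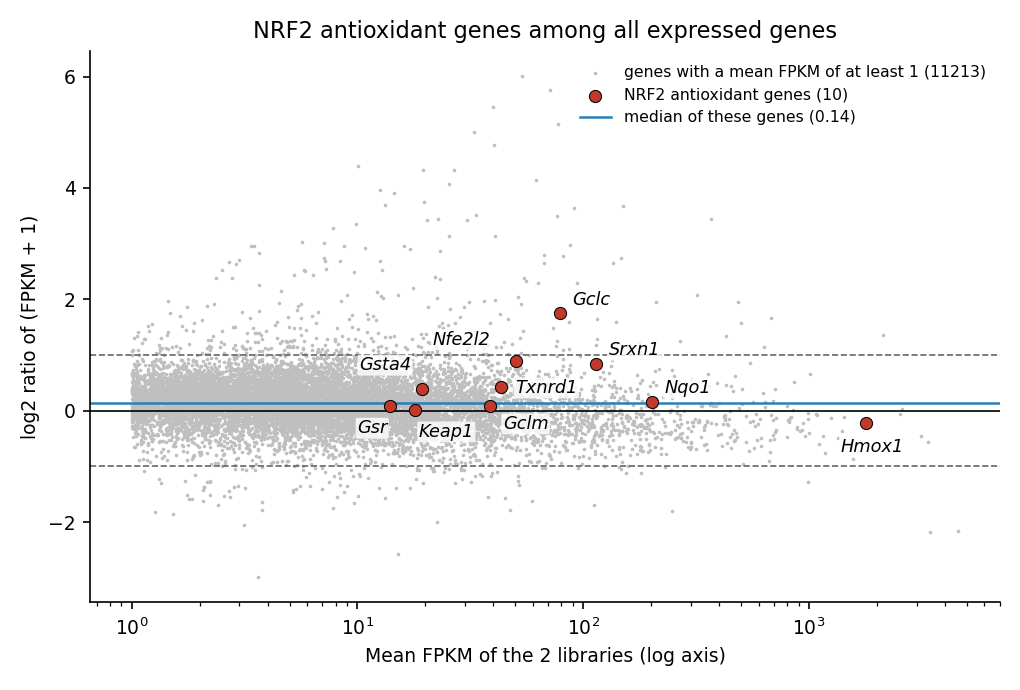
Log2 ratio of (FPKM + 1), TGFBR3-labelled over vector-labelled library, against mean FPKM (log axis) for the 11213 expressed genes (grey), with the 10 NRF2 antioxidant genes in red. The blue line is the median of the grey genes, 0.14, and dashed lines mark 2-fold. Gclc lies above the upper dashed line, and the other 9 genes lie between the dashed lines.

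Other cell types that carry Hmox1 or antioxidant genes were looked for by their markers. The 9 macrophage markers summed to 0.91 and 0.54 FPKM in the TGFBR3-labelled and vector-labelled libraries, and 5 of the 9 stood at 0 FPKM in each, among them Ptprc, Adgre1, Tyrobp and Fcer1g in both. The 4 globin genes of the erythroid list summed to 1.76 and 1.57 FPKM, the 4 endothelial markers to 2.1 and 2.02 FPKM, and the 3 muscle markers Myog, Acta1 and Ckm to 0.50 and 0.55 FPKM. These sums are far below the FPKM of any of the 10 genes. The 6 adipocyte markers summed to 47.31 and 85.17 FPKM, with 5 of the 6 below 0 after centring. Before centring Cfd was lowest at −1.29 (15.33 and 39.04 FPKM), with Adipoq at −1.07 (5.69 and 13.01 FPKM) and Fabp4 at −0.14. Pparg went the other way, with 2.19 and 1.61 FPKM (0.29, and 0.19 after centring). The adipocyte sum, though not Pparg, thus moved between the libraries beside Hmox1 and against Gclc, Nfe2l2 and Srxn1. The part of this sum in these values was not tested. In bulk RNA fewer cells of a type and less RNA per cell cannot be told apart.

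The other genes of the pathway were grouped in 8 lists without the 10 genes above, and for each list the median over its expressed genes is given before and after centring, beside the medians of all expressed genes, 0.14 and 0.01. Counts per list cover its measured genes, expressed or not. Of all expressed genes 13.3% were 1.5-fold higher and 4.91% were 1.5-fold lower, and of all genes 6.46% and 2.33%. The counts of the lists were not tested against these shares. Before centring no gene of 7 of the lists reached 2-fold, and after centring Maff (−1.05) and Gpx3 (−1.14) in these lists were at least 2-fold lower. Among the 14 regulators of NRF2, 1 gene was 1.5-fold higher and 1 was 1.5-fold lower, and the median of the 11 expressed ones was 0.06, or −0.08 after centring. Sqstm1, the autophagy receptor p62 that takes KEAP1 out of action and is itself an NRF2 target, had 437.72 and 277.44 FPKM (log2 ratio 0.66). Cul3, the scaffold of the ligase, had 13.06 and 8.86 FPKM (0.51), and Bach1, the repressor that competes for the same elements, had 2.89 and 1.91 FPKM (0.42). With the GC trend removed Cul3 was at 0.09 and Bach1 at 0.14. Maff, a small MAF partner, had 43.90 and 82.96 FPKM (−0.90).

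Glutathione metabolism outside the 10 genes was mixed. Of the 21 genes of glutathione synthesis and reduction, 2 were 1.5-fold higher and 3 were 1.5-fold lower, with a median of 0.04 over 18 expressed genes (−0.05 after centring). The 2 higher genes were Slc7a11 (3.00 and 1.52 FPKM, log2 ratio 0.67, and 0.24 with the GC trend removed) and Slc3a2 (0.64), the light and heavy chains of the transporter that brings in cystine for the step catalysed by Gclc. The 3 lower genes were glutathione peroxidases, Gpx3 (82.72 and 165.25 FPKM, −0.99), Gpx1 (149.52 and 244.00 FPKM, −0.70) and Gpx4 (111.16 and 176.00 FPKM, −0.66). With the GC trend removed these were −0.91, −0.62 and −0.40, so Gpx4 no longer reached the 1.5-fold line. Gpx4 is also uncertain, because 38.9% of its 31-base words occur in transcripts of other genes. The peroxidases did not all go this way, as Gpx8 had 159.67 and 115.50 FPKM (0.46) and Gpx7 was at −0.08. Of the 24 other glutathione S-transferases, 3 were 1.5-fold higher and 2 were 1.5-fold lower, and 15 of the 18 expressed ones lay below 0 after centring, with a median of −0.14 (−0.26 after centring). The 3 higher ones were Gsto1 (144.81 and 82.84 FPKM, 0.80) and the low genes Gsta1 (103 and 34 counts) and Gstm3 (96 and 19 counts), both of which share many of their words with other genes. The 2 lower ones were Mgst3 (9.69 and 16.37 FPKM, −0.70) and Gstm2 (85.32 and 132.12 FPKM, −0.62), of which Gstm2 shares 12.2% of its words with other genes. Gsta3 had 2.35 and 3.79 FPKM (−0.52). After centring, Gsta4 was thus on the other side of 0 from most of its family.

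In the thioredoxin and peroxiredoxin system 3 of 23 genes were 1.5-fold higher and 0 were 1.5-fold lower, and the median was 0.00 (−0.14 after centring). The higher genes were Prdx3, the mitochondrial peroxiredoxin (49.25 and 29.13 FPKM, log2 ratio 0.74), Prdx6 (159.73 and 99.85 FPKM, 0.67) and Txndc9 (0.68). Prdx2, a cytosolic peroxiredoxin that is a substrate of sulfiredoxin, had 88.75 and 129.38 FPKM (−0.54). These calls depend on the scaling. After centring, Prdx6 (0.52) and Txndc9 (0.54) fell below the 1.5-fold line, while Prdx3 (0.59) stayed just above it. Prdx2 (−0.69) was 1.5-fold lower after centring. With the GC trend removed, Prdx3 (0.45), Prdx6 (0.49) and Txndc9 (0.26) were all below the 1.5-fold line. Prdx4 (−0.71), Prdx2 (−0.66) and Msra (−0.63) were then 1.5-fold lower. Of 20 genes of heme and iron metabolism 1 was 1.5-fold higher and 0 were lower, with a median of 0.02 (−0.14 after centring). Abcg2, an exporter of heme and porphyrins, had 6.64 and 3.93 FPKM (0.63), and Fth1, the heavy chain of ferritin, had 2725.80 and 4037.51 FPKM (−0.57). With the GC trend removed Abcg2 was at 0.21 and Fth1 at −0.70. Slc48a1, the transporter that moves heme to Hmox1 from lysosomes, had 174.00 and 243.63 FPKM (−0.48). Ncoa4, the receptor that delivers ferritin to lysosomes for breakdown, had 9.18 and 6.03 FPKM (0.53), so genes of this list lay on both sides of 0.

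Of 16 genes listed under the supply of NADPH, which Gsr, Txnrd1 and Nqo1 consume, 1 was 1.5-fold higher and 2 were 1.5-fold lower. The median was 0.03 (−0.12 after centring). The higher gene was Rpe (log2 ratio 0.76) and the lower ones were Pgls (−0.84) and Idh2 (−0.61). With the GC trend removed these were 0.34, −0.76 and −0.57. Rpe and Pgls are enzymes of the pentose phosphate pathway that do not make NADPH themselves. Idh1 had a ratio of −0.32. Of 28 further detoxification genes named as NRF2 targets, 4 were 1.5-fold higher and 1 was 1.5-fold lower, and this list, which shares Fth1 with the heme and iron list, had the highest median, 0.21 (0.08 after centring). The higher genes were Aldh1a1 (54.31 and 29.56 FPKM, 0.86), Nqo2 (12.71 and 6.76 FPKM, 0.82), Akr1b10 (13.37 and 7.21 FPKM, 0.81) and Akr1b3 (24.03 and 14.54 FPKM, 0.69), which act on aldehydes and quinones, and the lower one was Aldh3a1 (0.24 and 0.91 FPKM, −0.62). With the GC trend removed Akr1b10 stayed above the 1.5-fold line at 0.67. Aldh1a1 (0.57), Akr1b3 (0.50) and Nqo2 (0.44) did not, and Aldh3a1 was at −0.63. The 18 genes listed under superoxide and peroxide metabolism also include nitric oxide synthases and metallothioneins. This list held 1 gene at least 2-fold higher, Nos2, the inducible nitric oxide synthase (175.26 and 55.20 FPKM, 1.65). It held 1 at least 2-fold lower, Sod3, the extracellular superoxide dismutase (113.89 and 247.58 FPKM, −1.11). The median over 11 expressed genes was −0.36 (−0.48 after centring), and after centring 4 of these lay above 0 and 7 below. The metallothioneins Mt1 (346.65 and 676.03 FPKM, −0.96) and Mt2 (878.04 and 1480.60 FPKM, −0.75) were also lower.

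**Figure D4:**
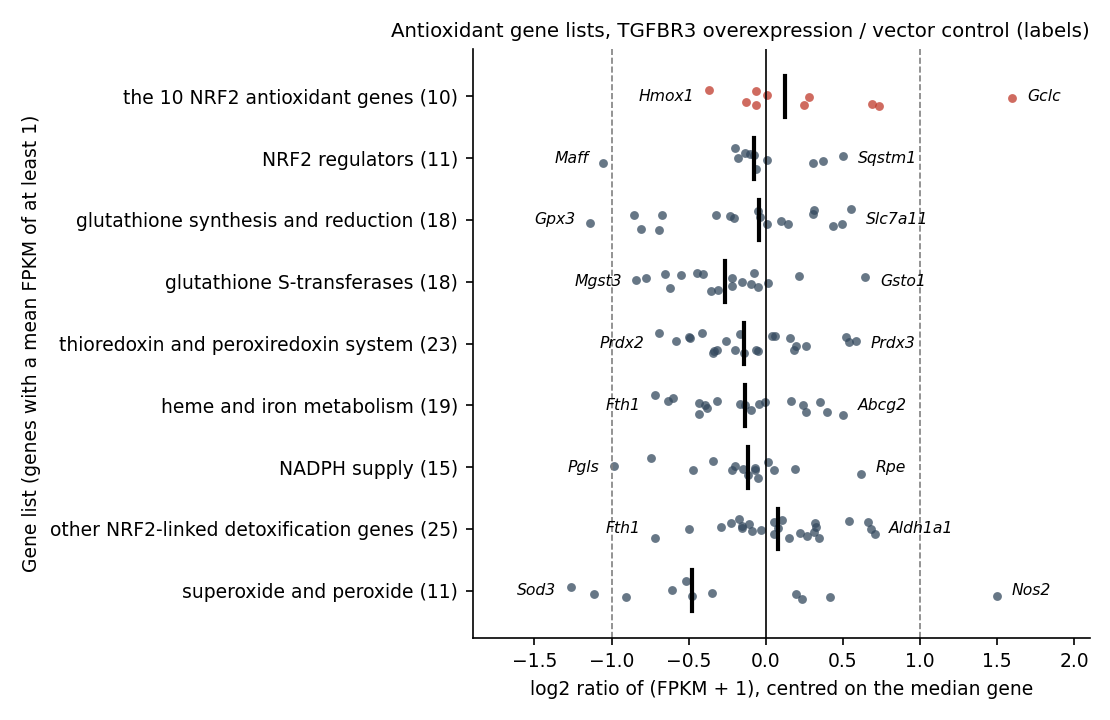
Centred log2 ratio of (FPKM + 1), TGFBR3-labelled over vector-labelled library, of the 10 NRF2 antioxidant genes (red) and of the expressed genes in 8 lists of the pathway (dark), with the number of genes in brackets, a bar at each median and names at the lowest and highest gene. Dashed lines mark 2-fold. Gclc and Nos2 lie above the upper line, Sod3 (−1.27), Gpx3 (−1.14), Mt1 (−1.11) and Maff (−1.05) lie below the lower one, and the medians run from −0.48 for superoxide and peroxide to 0.13 for the 10 genes.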

How the data were processed

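The authors deposited, per library, a count and an FPKM value of each gene, and these deposited counts are raw while the FPKM are scaled by gene length and library total. The methods name STAR and FeatureCounts on mm10, and the submitters' processing notes list cutadapt 1.9, HISAT2 2.2.1, StringTie 2.1.6, DESeq2 and edgeR, without roles. The labels describe poly(A) RNA, dUTP marking of the second strand and 150 nt reads in pairs. The analysis had been planned on FPKM alone, and FPKM stayed the main measure once the counts were seen.

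For each gene the log2 ratio of (FPKM + 1) was computed in Python 3.11.15, with 95% Clopper-Pearson intervals from the counts (Wald intervals for ratios of genes). Reads are not independent molecules and cultures were not replicated, so these intervals are too narrow. Centring divided FPKM by the median plain ratio, 0.15 on the log2 scale, over 10626 genes that reached an FPKM of 1 in each library. GC and exon length trends were medians of the uncentred ratio in 20 bins, so removing either also takes out the shift between the libraries. They used GENCODE M21, which holds 99.7% of the gene identifiers. The calculations were tested on simulated counts. The members and lists were chosen with earlier results of these data known. Named were all 10 genes, Tgfbr3, and per list up to 4 expressed genes of largest absolute ratio. Slc3a2, Gsta1, Gstm3, Aldh3a1, Prdx4 and Msra were added to name every gene of a count, and genes around Gclc and Nfe2l2 for their place. Gpx7 and Gpx8 were added beside the other peroxidases. All of these were added after their values were seen, and cell type markers were named to check the label. Nnt was left out of its list, because it has more than 1 entry. Some listed genes, among them Trim16l, Nox1, Ncf4, Pax7, Myf5, Myod1 and Alas2, were not analysed here.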

Additional observations from a re-analysis of the deposited data

How the results depend on the processing

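The counts of the 10 genes at least 2-fold (1) and at least 1.5-fold (3) from equality were the same with a pseudocount of 0.1, without one, after centring, as CPM, and after removal of the GC or exon length trend. The median of the 10, 0.28, was 0.13 after centring and 0.15 after removal of the GC trend. That removal also takes out the shift that centring removes, so these are not 2 separate effects. The count of all genes past 2-fold, 493, became 2859 with a pseudocount of 0.1 and 835 as CPM, and the share of these calls that were higher went from 74.8% to 59.5% after centring. The median ratio fell with GC content, being 0.42 for the bin poorest in GC (of 20) and −0.26 for the richest. Over the 10 genes and 6 alternatives, 26 values moved beyond their counting interval and 34 did not. Keap1, Gclm, Gsr and Nqo1 changed sign in at least 1 of these, and the other 6 genes in none. No paired analysis was possible because there is 1 library per condition.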

Other observations

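Nnt, the mitochondrial transhydrogenase that supplies NADPH, appears as 2 overlapping entries. One had 3.31 FPKM in the TGFBR3-labelled library and 0.45 in the vector-labelled library, and the other had 1.31 and 6.22. Their counts summed to 1878 and 2214. The entries lie on the same strand and share exons, so reads can be split between them in either way. Their FPKM summed to 4.62 and 6.67. The entries differ in FPKM per count, so this sum also depends on the split. No direction is therefore given for Nnt.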
